A study of Mus musculus with 6 samples.

Results

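The genes described here are 37 genes of the lysosome and of autophagy, taken by name from a list that covers both processes. They are 37 of the 55471 gene IDs in the deposited expression table, and every listed name was found in it with a single ID. Of these, 21 encode lysosomal proteins (membrane proteins, peptidases, glycan and lipid handling proteins and subunits of the proton pump), 3 encode transcription factors of the MiT family, and 13 encode autophagy proteins. Their RNA was measured by total RNA sequencing of mouse haematopoietic stem cells, the bone marrow cells that renew themselves and give rise to all blood lineages. The sort took cells that lack lineage markers and CD48 and carry Kit, Sca1 and CD150. All 6 libraries carry the same genotype label, ETV6-RUNX1, the fusion gene of a childhood B cell precursor leukaemia. In the 3 uninduced libraries the mice received no doxycycline, and in the 3 induced libraries doxycycline was given in the food for 2 weeks. The comparison asks how stem cell transcripts differ once the fusion is switched on. A control with the drug but no fusion was not analysed here, so drug and fusion cannot be told apart. Strain, age, sex, the promoter that drives the fusion and any pooling of animals are not given in the sources used here. The design text calls the libraries replicates without saying that each came from a separate mouse, so p-values measure the spread between these libraries only.

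Lysosomes are acidic compartments in which peptidases, glycosidases and lipases break down material delivered by endocytosis and by autophagy. In autophagy a membrane grows around cytoplasm or organelles, proteins of the Atg8 family are attached to it, receptors such as p62 tie cargo to them, and the closed vesicle fuses with a lysosome. Transcription factors of the MiT family (TFEB, TFE3, MITF and TFEC) bind E-box sequences, which many of these genes carry in their promoters. The kinase complex mTORC1 keeps TFEB and TFE3 out of the nucleus when nutrients are plentiful. In haematopoietic stem cells, autophagy is known for clearing mitochondria and for preserving the resting state, and large lysosomes have been described as a feature of quiescent stem cells.

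The promoters of several members hold the E-box that MiT factors read. RefSeq promoters (GRCm38.p6, from 250 bases before to 50 bases after the start) were given for 29 of the 37 members. These 29 had 36 windows, and a gene counted once if any of its windows held the motif. The 6-base E-box CACGTG occurred in 11 of these 29, or 37.9%, against 8.09% of the 27025 genes that have a promoter in the table. The 7-base form TCACGTG, searched on both strands and always containing the shorter motif, occurred in 9 of 29 (31.0%) against 4.29% of all genes. These 9 were Atg7, Atp6v0d1, Atp6v1a, Ctsa, Ctsd, Gla, Glb1, Lamp1 and Mcoln1. The longer palindrome known as the CLEAR consensus occurred in 0 of 29 members and in 0.37% of all genes, which says only that these letters are not in these windows. With only the bases before the start, TCACGTG occurred in 8 of 29 members (27.6%) and in 3.58% of all genes. A match is a description of the sequence and shows no binding.

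Stretches of 7 of these promoters are printed because they carry the motif, with TCACGTG on either strand in capitals. All are written 5′ to 3′ on the strand of the gene, in GRCm38.p6 coordinates. The start is that of a RefSeq transcript and need not be the first base of the gene. In the GENCODE vM21 annotation the stretches of Atp6v1a, Atg7, Ctsd, Ctsa and Mcoln1 lie inside the gene. That of Atg7 lies far from the first base of its gene at 114643097, and those of Ctsd, Ctsa and Mcoln1 touch annotated exons. Lamp1 holds 4 copies, which begin at positions -62, -45, -28 and -16, where -1 is the base just before the start.
Lamp1, chr8:13159076-13159160, plus strand: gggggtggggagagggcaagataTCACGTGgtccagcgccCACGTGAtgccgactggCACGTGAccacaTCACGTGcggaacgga
Glb1, chr9:114401005-114401059, plus strand: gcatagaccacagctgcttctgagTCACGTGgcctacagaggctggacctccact
Atp6v1a, chr16:44139360-44139415, minus strand: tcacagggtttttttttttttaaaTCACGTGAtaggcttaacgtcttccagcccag
Atg7, chr6:114670939-114670993, plus strand: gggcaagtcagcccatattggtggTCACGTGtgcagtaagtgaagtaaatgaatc
Ctsd, chr7:142387911-142387937, minus strand: tcgcccgcgtcTCACGTGAcccgttga
Ctsa, chr2:164833743-164833772, plus strand: gaacaatgagcaaactgTCACGTGAtgcag
Mcoln1, chr8:3500463-3500489, plus strand: ggcgccccgcTCACGTGAccgcggcgc

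The 3 members that passed the test described below had no CACGTG in their windows. Stretches of their promoters are shown for comparison, with nothing in capitals.
Sqstm1, chr11:50210828-50210887, minus strand: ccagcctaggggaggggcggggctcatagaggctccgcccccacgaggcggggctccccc
Gabarapl1, chr6:129533130-129533159, plus strand: ggtccttagcgccgggggcggagcgggggt
Ctsz, chr2:174439040-174439099, minus strand: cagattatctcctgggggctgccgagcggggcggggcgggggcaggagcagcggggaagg

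Transcript levels were deposited as TPM, a length-corrected share of the library that can be compared between genes. TPM keeps no sequencing depth, so the depth of each library is unknown. Changes are induced minus uninduced on the log2(TPM + 1) scale, which understates the change of low genes, and were tested with limma over the 13470 genes that averaged 1 TPM or more. The groups differ in what fills the library: nuclear protein-coding genes held 26.6% to 32.9% of the TPM in uninduced and 20.5% to 23.2% in induced libraries. The median change of all tested genes was -0.35 on deposited TPM. After median-of-ratios scaling, which divides each library by the median ratio of its genes to their means, the median was -0.0029. Values after this scaling are called scaled TPM, and both scales are given because several members change sign or call between them.

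Few of the 37 genes changed by enough to pass the test, and the clearest rise was in the autophagy receptor gene Sqstm1. Of the 37 members, 36 could be tested, and the alpha-galactosidase gene Gla, with a mean of 0.629 TPM, fell below the filter. On deposited TPM, Sqstm1 passed as higher and the cathepsin gene Ctsz as lower at an adjusted p under 0.05, or 1 of 36 in each direction, against 1.29% of all tested genes higher and 10.2% lower (11.5% in either direction). On scaled TPM, Sqstm1 and the Atg8 family gene Gabarapl1 passed as higher, or 2 of 36, against 2.84% of all tested genes. No member passed as lower on that scale by limma, where 1 member was lower at an unadjusted p under 0.05, and 3.21% of all tested genes passed (6.04% in either direction). The higher calls thus lay near the share of all genes on both scales, and the lower calls below it, a difference that was not tested.

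The members as a list lay above the median gene. Their median change was -0.02 on deposited TPM, beside -0.35 over all tested genes, and 30 of the 36 lay above the median of all genes. On scaled TPM their median was 0.32, and 31 of the 36 lay above 0. The 13 autophagy members had a median of 0.0075 on deposited and 0.31 on scaled TPM, and all 13 lay above the median of all genes on both scales. The 20 tested lysosomal members had medians of -0.06 and 0.30, and 14 and 15 of them lay above the median of all genes. Of 140 other tested genes of these pathways, described below, 108 and 109 lay above it. None of these differences from all genes was tested.

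**Figure D1:**
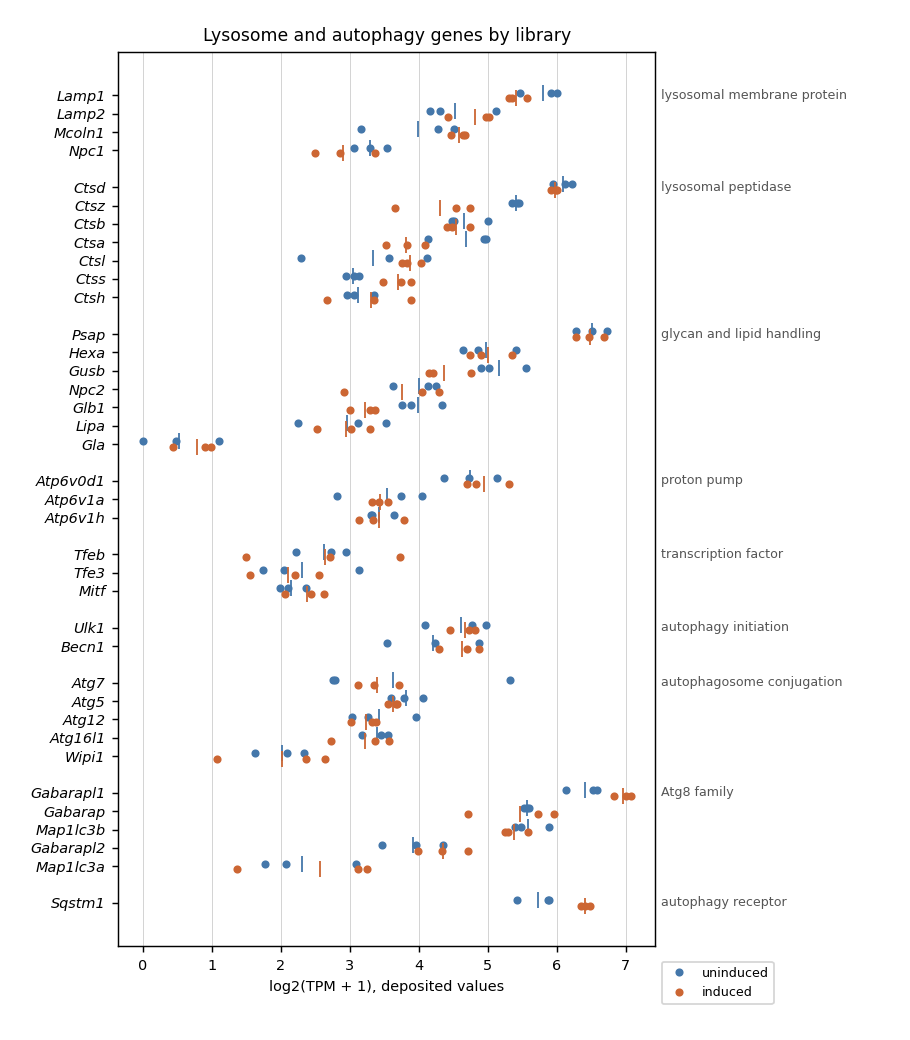
Level of each member in each library as log2(TPM + 1) on deposited values (x axis), with genes grouped by role (y axis); points are the 3 uninduced and 3 induced libraries and vertical ticks are group means. The induced points of Sqstm1 and Gabarapl1 lie to the right of all their uninduced points, and those of Ctsz lie to the left.

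**Figure D2:**
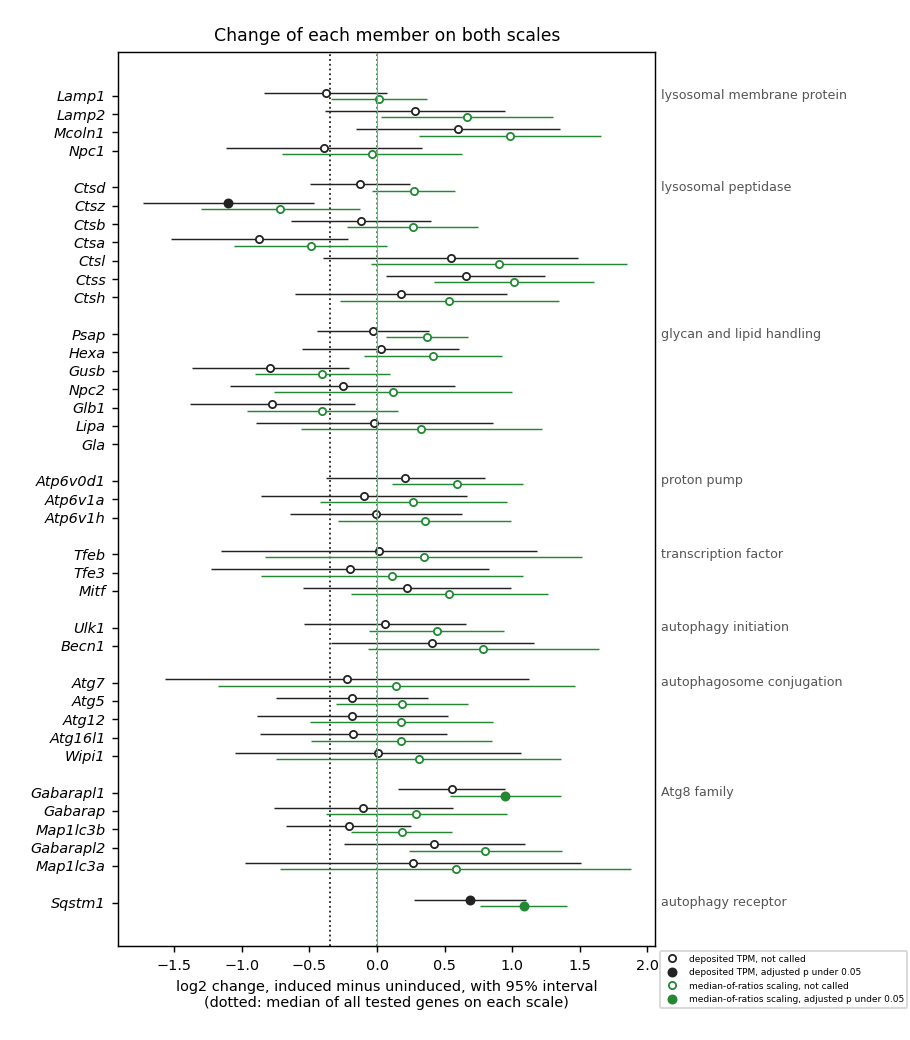
Change of each member on deposited TPM (black) and after median-of-ratios scaling (green), as induced minus uninduced on the log2 scale with 95% intervals from limma; dotted lines mark the median of all tested genes on each scale (-0.35 and -0.0029) and filled points passed at an adjusted p under 0.05. Sqstm1 is filled on both scales, Ctsz only on deposited and Gabarapl1 only on scaled values, and Gla was not tested.

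Sqstm1 encodes p62, a receptor that binds ubiquitin-tagged cargo and the Atg8 proteins of the growing membrane, and which is itself degraded by autophagy. The gene (ENSMUSG00000015837) lies on chromosome 11 from 50199366 to 50210827, minus strand, in GRCm38. It stood at 57.4, 58.0 and 41.8 TPM in uninduced and at 83.9, 80.7 and 88.5 TPM in induced libraries. Every induced library lay above every uninduced library. The group means were 52.4 ± 9.19 and 84.3 ± 3.91 TPM (SD, n = 3 each), and the change on deposited TPM was 0.69 (95% interval 0.28 to 1.11, limma adjusted p 0.0414). After scaling, the means were 44.3 ± 4.38 and 94.9 ± 2.13 scaled TPM (SD, n = 3 each), a change of 1.08 (0.76 to 1.41, limma adjusted p 0.00438). On deposited TPM the call was lost when any single library was left out (0.54 to 0.77, limma adjusted p 0.058 to 0.113). On scaled TPM it was kept each time (1.00 to 1.14, limma adjusted p 0.0128 to 0.0272). Exons of Mrnip on the opposite strand share 17.3% of the exonic bases of Sqstm1. Mrnip stood at 0.653 to 7.87 TPM, and whether strand was used in counting is not given in the sources used here. Because the samples are bulk RNA, fewer cells of a type and less RNA per cell cannot be told apart for this or any gene below.

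The Atg8 family proteins are small ubiquitin-like proteins that are linked to lipid on the autophagosome membrane. Gabarapl1 (ENSMUSG00000030161; chromosome 6, 129533160 to 129542346, plus strand) had the highest mean level of all 37 members, at 104.6 TPM over the 6 libraries. It stood at 91.1, 69.2 and 94.6 TPM in uninduced and at 126.8, 112.2 and 133.5 TPM in induced libraries. The groups did not overlap, and the lowest library was uninduced replicate 2. The change was 0.55 on deposited TPM (0.16 to 0.95, limma adjusted p 0.0722), which did not pass. It was 0.95 on scaled TPM (0.54 to 1.36, limma adjusted p 0.0194), which passed. That call was lost when any of the 3 induced libraries was left out (limma adjusted p 0.0651 to 0.0689). The exons of 1700101I11Rik, on the opposite strand, share 28.3% of its exonic bases and stood at 0.012 to 2.21 TPM.

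The 4 other members of the Atg8 family did not pass on either scale. Gabarap ranged from 25.1 to 61.1 TPM, with group means of 46.3 and 46.0 TPM, and its lowest library was induced replicate 1. Map1lc3b, whose product LC3B is the usual marker protein of autophagosomes, ranged from 36.9 to 58.1 TPM, with means of 47.6 and 40.7 TPM. Gabarapl2 ranged from 10.1 to 25.1 TPM, with a higher mean in induced libraries (14.6 and 19.7 TPM). Its scaled values did not overlap between groups, at a change of 0.80 (limma adjusted p 0.1002). Map1lc3a, the lowest of the family, ranged from 1.57 to 8.47 TPM and varied widely within both groups.

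The balance within the family can be read without any scaling between libraries, because a ratio of TPM values within a library does not depend on it. Map1lc3b made up 21.4%, 29.7% and 21.1% of the family's TPM in uninduced and 18.1%, 16.4% and 17.2% in induced libraries, so the groups did not overlap. Gabarapl1 made up 44.7%, 35.4% and 48.8% against 60.1%, 50.1% and 48.6%, and these groups overlapped. Gabarap made up 23.2%, 23.8% and 23.2% against 11.9%, 23.1% and 22.3%, without overlap, although only induced replicate 1 lay far from the rest. The shares of Gabarapl2 and Map1lc3a overlapped. The ratio of Sqstm1, which is outside the family, to Map1lc3b TPM was 1.32, 0.998 and 1.02 in uninduced and 2.20, 2.19 and 1.88 in induced libraries. The ratio was thus higher in every induced library than in any uninduced library. It compares RNA, and neither the proteins nor the rate of autophagy was measured. These ratios are given without a test, because an exact two-sided permutation test of 3 libraries against 3 cannot give a p below 0.1.

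**Figure D3:**
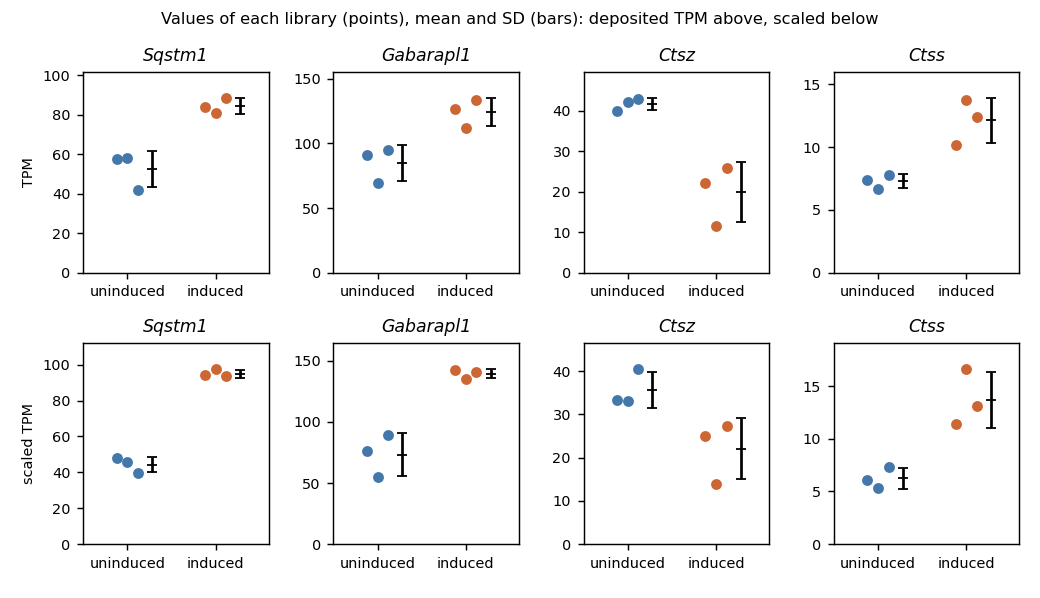
TPM in each library (y axis, from 0) of Sqstm1, Gabarapl1, Ctsz and Ctss for the uninduced and induced groups (x axis), on deposited TPM in the upper and scaled TPM in the lower panels; bars are means with SD. Sqstm1 and Gabarapl1 are higher in every induced library on both scales, and Ctsz is lower in every induced library on both scales although its call holds only on deposited values. Ctss is higher in every induced library and passed on neither scale.

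Genes that start autophagy showed no change past the threshold. Ulk1, the kinase that mTORC1 restrains and that starts autophagosome formation, stood at 26.2, 30.3 and 15.99 TPM in uninduced and at 27.2, 20.9 and 25.4 TPM in induced libraries. The induced values lay within the uninduced range, and the change was 0.06 on deposited TPM (-0.54 to 0.66, limma adjusted p 0.912). On scaled TPM the groups did not overlap, at 0.44 (-0.06 to 0.94, limma adjusted p 0.286). Becn1, a subunit of the lipid kinase complex that acts next, ranged from 10.6 to 28.3 TPM. Its means were 18.9 and 23.9 TPM and its groups overlapped on both scales. Exons of Cntd1, on the opposite strand, share 43.9% of the exonic bases of Becn1, and Cntd1 stood at 1.77 TPM or less.

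The conjugation genes attach Atg8 proteins to lipid or mark the membrane where this happens, and none of the 5 passed on either scale. Atg7, the E1-like enzyme of the reaction and the highest of the group, stood at 5.88, 39.0 and 5.75 TPM in uninduced and at 7.73, 9.25 and 12.1 TPM in induced libraries. Uninduced replicate 2 stood far above the other 5 libraries and set both the group mean and the rank, since Atg7 was below Atg5 in 4 of those 5. With it, the change was -0.22 on deposited TPM (-1.57 to 1.12, limma adjusted p 0.845), and without it the change was 0.63 (limma adjusted p 0.267). Atg5, Atg12 and Atg16l1, which form the complex that completes the reaction, ranged from 10.7 to 15.8, from 7.09 to 14.6 and from 5.62 to 10.8 TPM. Each had a lower mean in induced libraries, at 11.4 against 13.2, 8.50 against 10.1 and 8.58 against 9.59 TPM, with overlapping groups. The deposited changes of these 3 genes were -0.19, -0.18 and -0.18, and each was above 0 on scaled TPM, at 0.19, 0.18 and 0.18. Wipi1, a lipid-binding protein of the early membrane, ranged from 1.11 to 5.21 TPM, with means of 3.13 and 3.49 TPM.

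Among the lysosomal membrane proteins no member passed on either scale. Lamp1, a heavily glycosylated protein that lines the membrane and serves as its usual marker, stood at 59.6, 62.8 and 43.2 TPM in uninduced and at 40.0, 38.7 and 46.6 TPM in induced libraries. Uninduced replicates 1 and 2 were the highest, and uninduced replicate 3 lay within the induced range. The change was -0.38 on deposited TPM (-0.84 to 0.07, limma adjusted p 0.258) and 0.013 on scaled TPM (-0.34 to 0.37, limma adjusted p 0.9753). Lamp2, its paralogue, which is needed for fusion with autophagosomes, ranged from 16.8 to 33.6 TPM, with means of 23.1 and 27.5 TPM. Npc1, which exports cholesterol from the lysosome, ranged from 4.63 to 10.7 TPM, with means of 8.93 and 6.74 TPM.

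Mcoln1 encodes the lysosomal calcium channel mucolipin 1, whose calcium release activates calcineurin and through it TFEB. It ranged from 7.995 to 24.4 TPM, with a mean of 16.1 TPM in uninduced and 23.1 TPM in induced libraries. The groups overlapped on deposited TPM (0.60, limma adjusted p 0.281) and did not on scaled TPM (0.98, limma adjusted p 0.0924). Neither value passed.

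The proton pump acidifies the lysosome, and its 3 members did not pass on either scale. Atp6v0d1, a subunit of the membrane part, was the highest, at 25.4, 34.2 and 19.5 TPM in uninduced and 27.5, 25.05 and 38.5 TPM in induced libraries. The highest library was induced replicate 3, and the groups overlapped on deposited but not on scaled TPM. The change was 0.21 on deposited TPM (-0.38 to 0.80, limma adjusted p 0.648) and 0.59 on scaled TPM (0.11 to 1.08, limma adjusted p 0.146). With single libraries left out the deposited change ranged from 0.017 to 0.41. Atp6v1a, the catalytic subunit, ranged from 6.04 to 15.5 TPM with means of 11.3 and 9.85 TPM. Atp6v1h, a regulatory subunit, ranged from 7.74 to 12.8 TPM with means of 9.80 and 9.88 TPM.

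Of the 7 peptidases Ctsz fell on deposited TPM, and the other 6 passed on neither scale. Ctss had a higher mean in induced libraries, and the means of Ctsd, the most abundant, lay close together on deposited TPM. Ctsz encodes cathepsin Z, a carboxypeptidase (ENSMUSG00000016256; chromosome 2, 174427493 to 174439039, minus strand). It stood at 40.0, 42.0 and 42.9 TPM in uninduced and at 22.2, 11.6 and 25.8 TPM in induced libraries. All induced libraries lay below the uninduced ones, and induced replicate 2 was the lowest. The means were 41.62 ± 1.502 and 19.9 ± 7.38 TPM (SD, n = 3 each), a change of -1.10 on deposited TPM (-1.73 to -0.47, limma adjusted p 0.0358). On scaled TPM the groups still did not overlap, but the change of -0.71 did not pass (-1.30 to -0.13, limma adjusted p 0.149), and it ranged from -0.89 to -0.43 with single libraries left out, smallest without induced replicate 2. On deposited TPM the call held without induced replicate 3 and was lost without any other single library (-0.77 to -1.21, limma adjusted p 0.0646 to 0.0909). Exons of Nelfcd on the opposite strand share 0.694% of its exonic bases.

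Ctsd encodes the aspartic peptidase cathepsin D. Its level was 73.3, 68.5 and 60.5 TPM in uninduced and 62.5, 59.1 and 63.4 TPM in induced libraries. The groups overlapped within a narrow range, with a change of -0.12 on deposited TPM (-0.50 to 0.25, limma adjusted p 0.667). On scaled TPM it was 0.27 (-0.04 to 0.58, limma adjusted p 0.288), and every induced library lay above every uninduced library.

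Ctss encodes cathepsin S, a cysteine peptidase best known from antigen-presenting cells. It ranged from 6.70 to 7.78 TPM in uninduced and from 10.2 to 13.8 TPM in induced libraries, without overlap. The change was 0.66 on deposited TPM (limma adjusted p 0.139) and 1.01 on scaled TPM (limma adjusted p 0.0565). It passed only after rescaling to nuclear protein-coding genes (1.13, limma adjusted p 0.0414), and it is described at this length because of its values.

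Ctsa, whose product protects other lysosomal enzymes, ranged from 16.5 to 30.5 TPM in uninduced and from 10.5 to 15.98 TPM in induced libraries. Its deposited change of -0.87 did not pass (limma adjusted p 0.0845), although it did without uninduced replicate 3 (-1.15, limma adjusted p 0.0334). On scaled TPM its groups overlapped. The cysteine peptidase genes Ctsb, Ctsl and Ctsh ranged from 20.2 to 30.9, from 3.90 to 16.4 and from 5.33 to 13.8 TPM, and their groups overlapped on deposited TPM. The mean was lower in induced libraries for Ctsb (24.7 and 22.4 TPM) and higher for Ctsl (10.4 and 13.7 TPM) and Ctsh (7.78 and 9.45 TPM). As a share of the TPM of all 7 peptidases, Ctsz made up 20.6%, 21.7% and 25.7% in uninduced and 13.4%, 8.48% and 16.7% in induced libraries. Ctss made up 3.78%, 3.47% and 4.67% against 6.15%, 10.04% and 8.002%. The share of Ctsa was 15.3%, 15.8% and 9.90% against 9.64%, 7.68% and 8.52%, and that of Ctsl 2.01%, 8.49% and 6.56% against 9.26%, 9.18% and 8.55%. In none of these shares did the groups overlap. Shares within a library do not depend on its scaling, but they sum to a fixed total, so a lower share of some peptidases raises the others, and the deposited TPM of Ctsl itself overlapped.

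The enzymes and carriers for glycans and lipids included the second most abundant member, and none passed on either scale. Psap encodes prosaposin, the precursor of the saposins that help enzymes reach sphingolipids. It stood at 89.9, 104.4 and 76.8 TPM in uninduced and at 87.6, 76.3 and 101.6 TPM in induced libraries, so the groups overlapped almost completely. The change was -0.03 on deposited TPM (-0.44 to 0.38, limma adjusted p 0.940), and 0.37 on scaled TPM (0.07 to 0.67, limma adjusted p 0.148), where the groups did not overlap. Gusb and Glb1, the genes of beta-glucuronidase and beta-galactosidase, had lower values in every induced library on deposited TPM. Gusb ranged from 28.9 to 46.1 TPM in uninduced and from 16.7 to 26.0 TPM in induced libraries (-0.79, limma adjusted p 0.0802). Glb1 ranged from 12.6 to 19.2 TPM and from 7.01 to 9.27 TPM, respectively (-0.77, limma adjusted p 0.0975). On scaled TPM the changes were -0.40 and -0.41, and only Glb1 still showed no overlap.

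Among the rest of this class, Hexa, a subunit of beta-hexosaminidase, ranged from 23.9 to 41.5 TPM with means of 31.2 and 31.5 TPM. Npc2, which hands cholesterol to Npc1, ranged from 6.52 to 18.6 TPM with means of 15.3 and 13.6 TPM. Lipa, the acid lipase, ranged from 3.74 to 10.6 TPM with means of 7.33 and 6.89 TPM. Gla was listed at 0, 0.401 and 1.16 TPM in uninduced and at 0.872, 0.993 and 0.356 TPM in induced libraries.

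Counted by overlap, 3 of the 36 tested members were higher in every induced library on deposited TPM (Sqstm1, Gabarapl1 and Ctss), against 4.83% of all tested genes. Another 4 were lower in every induced library (Ctsz, Ctsa, Gusb and Glb1), against 28.2% of all tested genes (33.1% in either direction). All 4 of these are lysosomal enzymes. On scaled TPM, 11 members were higher without overlap, against 13.4% of all genes, and 2 were lower (Ctsz and Glb1), against 14.5% (27.9% in either direction).

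The MiT factors themselves were low, and none of the 3 members passed on either scale. Tfeb, the factor best known for driving lysosomal genes, stood at 5.61, 6.73 and 3.64 TPM in uninduced and at 1.81, 5.57 and 12.2 TPM in induced libraries. Induced libraries held both its lowest and its highest value, and the change was 0.01 on deposited TPM (-1.15 to 1.18, limma adjusted p 0.991). Tfe3 stood at 3.14, 7.73 and 2.36 TPM and at 4.90, 1.94 and 3.62 TPM, with a deposited change of -0.20 (-1.23 to 0.82, limma adjusted p 0.813). The highest value of Tfe3 was again in uninduced replicate 2, and the groups overlapped. Mitf stood at 2.98, 4.14 and 3.30 TPM and at 3.19, 4.40 and 5.16 TPM, a deposited change of 0.22 (-0.55 to 0.99, limma adjusted p 0.717). On scaled TPM the changes of Tfeb, Tfe3 and Mitf were 0.35, 0.11 and 0.535 (limma adjusted p 0.757, 0.914 and 0.383). The scaled values of Mitf did not overlap, at 2.48, 3.27 and 3.11 in uninduced and 3.57, 5.31 and 5.45 in induced libraries. The deposited intervals of Tfeb and Tfe3 span more than 1 log2 unit on the lower side and 0.82 or more on the upper side. Changes within these limits were thus not excluded. Transcript levels say nothing of where these proteins are in the cell, which is how mTORC1 controls them.

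Tfec, the fourth gene of the family and not among the 37, did rise. It stood at 11.4, 6.25 and 10.2 TPM in uninduced and at 23.4, 20.6 and 30.5 TPM in induced libraries. Each induced library was above each uninduced library, and the level in induced libraries was above that of Tfeb, Tfe3 and Mitf. The change was 1.34 on deposited TPM (limma adjusted p 0.0173) and 1.71 on scaled TPM (limma adjusted p 0.0121). The deposited call was lost without induced replicate 1 (1.38, limma adjusted p 0.0531) or induced replicate 3 (1.19, limma adjusted p 0.0648). The scaled call was lost only without induced replicate 3 (1.61, limma adjusted p 0.0517).

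The summed level of the 37 members depended on the scale. On deposited TPM the total was 897, 997 and 778 in uninduced and 870, 831 and 989 in induced libraries, and the groups overlapped. On scaled TPM it was 746, 787 and 733 against 975, 1002 and 1044, with every induced library higher. As a share of the TPM of nuclear protein-coding genes, the members took 0.301%, 0.303% and 0.292% in uninduced and 0.395%, 0.404% and 0.426% in induced libraries. Relative to other protein-coding transcripts, the sum was thus higher in each induced library, at 0.408% ± 0.0155 against 0.299% ± 0.00575 (SD, n = 3 each). Much of the sum lies in a few genes, with Gabarapl1, Psap, Sqstm1 and Ctsd as the highest 4, at mean levels of 104.6, 89.5, 68.4 and 64.6 TPM.

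**Figure D4:**
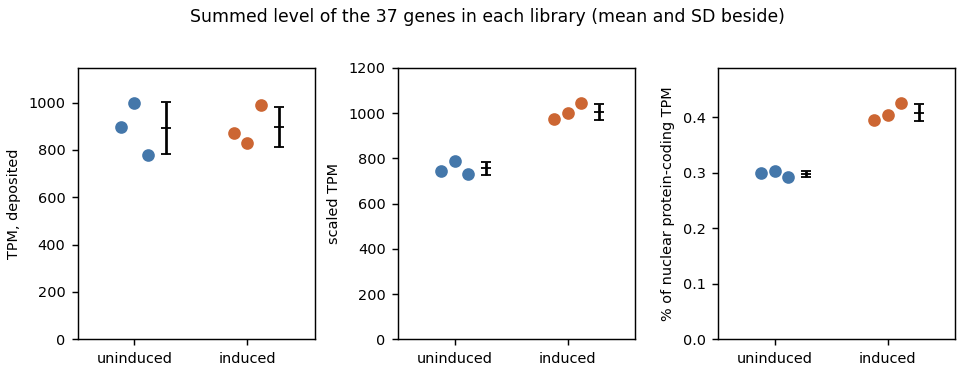
Summed level of the 37 members in each library (x axis: library group), as deposited TPM, as scaled TPM and as a percent of the TPM of nuclear protein-coding genes (y axes, from 0). The groups overlap on deposited TPM (778 to 997 and 831 to 989) and do not on the other measures.

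Other genes of the same pathways, in 5 lists, held few calls on deposited TPM and more on scaled TPM. Of 150 listed genes 140 could be tested. On deposited TPM 3 were higher and 2 lower, with a median change of -0.08, and on scaled TPM 10 were higher and 1 lower, with a median of 0.29. The same medians over all tested genes were -0.35 and -0.0029. Over all tested genes, 1.29% were higher and 10.2% lower on deposited TPM, and 2.84% and 3.21% on scaled TPM. The difference between the lists and all genes was not tested.

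Among 51 tested lysosomal genes outside the 37, 1 was higher and 2 were lower on deposited TPM (median -0.12), among them Pla2g15, which rose, and Igf2r, which fell. Igf2r encodes the receptor that carries mannose 6-phosphate-tagged enzymes to the lysosome and takes up IGF2. It stood at 10.6, 9.04 and 7.33 TPM in uninduced and at 1.55, 1.02 and 2.17 TPM in induced libraries, a deposited change of -1.96 (limma adjusted p 0.00817) and a scaled change of -1.66 (limma adjusted p 0.0205). On deposited TPM it was the largest change in the 5 lists and the call was kept whichever library was left out. On scaled TPM the call was kept only without induced replicate 3 (limma adjusted p 0.0566 to 0.0722 without each of the others). Pla2g15, a lysosomal phospholipase, stood at 3.78, 3.38 and 5.67 TPM and at 12.5, 11.2 and 11.6 TPM (deposited change 1.30, limma adjusted p 0.0227; scaled change 1.64, limma adjusted p 0.0161). The induced values of Pla2g15 were close to each other and all above the uninduced ones. The deposited call of Pla2g15 was lost without any library but uninduced replicate 3 (limma adjusted p 0.063 to 0.0813). On scaled TPM it was lost without any induced library (limma adjusted p 0.0554 to 0.0666). On scaled TPM 4 genes of this list were higher and 1 lower, with a median of 0.24.

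The other subunits of the proton pump, with 14 of 16 tested, held no call on either scale by limma, and none had an unadjusted p under 0.05 on deposited TPM. On scaled TPM 4 were higher at an unadjusted p under 0.05. Their median was -0.23 on deposited and 0.14 on scaled TPM, and Atp6v1f, the highest, changed by 0.18 (limma adjusted p 0.654) on deposited TPM.

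Among the other autophagy genes, the 36 tested machinery genes had a median of 0.06 on deposited and 0.44 on scaled TPM. Atg10, the E2-like enzyme that joins ATG12 to ATG5, was the only call on deposited TPM. It stood at 2.29, 0.627 and 1.19 TPM in uninduced and at 4.89, 6.44 and 7.98 TPM in induced libraries (deposited change 1.69, limma adjusted p 0.0265; scaled change 1.96, limma adjusted p 0.0205). The groups did not overlap, but the level was low, and the deposited call was lost without any library but uninduced replicate 1 (limma adjusted p 0.055 to 0.0974). The same held on scaled TPM (limma adjusted p 0.0527 to 0.0827). On scaled TPM Pik3r4, a subunit of the same lipid kinase complex as Becn1, passed with it (1.41, limma adjusted p 0.0346), a call kept only without uninduced replicate 2 when single libraries were left out (limma adjusted p 0.0645 to 0.1223 without each of the others).

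Of 14 other autophagy receptor genes, none passed by limma on deposited TPM (median -0.07), and none had an unadjusted p under 0.05. On scaled TPM 3 were higher (median 0.27), namely Nbr1 (0.88, limma adjusted p 0.0388), Calcoco1 (0.79, limma adjusted p 0.0373) and Tax1bp1 (0.51, limma adjusted p 0.0461). Each of these 3 calls was lost whichever library was left out (limma adjusted p 0.0501 to 0.138). Nbr1 and Tax1bp1 encode receptors that, like p62, bind ubiquitin-tagged cargo. Tax1bp1 was the most abundant of the list, at 82.7 to 106.2 TPM, and its groups overlapped on deposited TPM (0.12, limma adjusted p 0.681). In the list of mTORC1 and TFEB control, with 25 of 26 tested, Tfec was the only call on either scale, and the medians were -0.10 and 0.27.

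**Figure D5:**
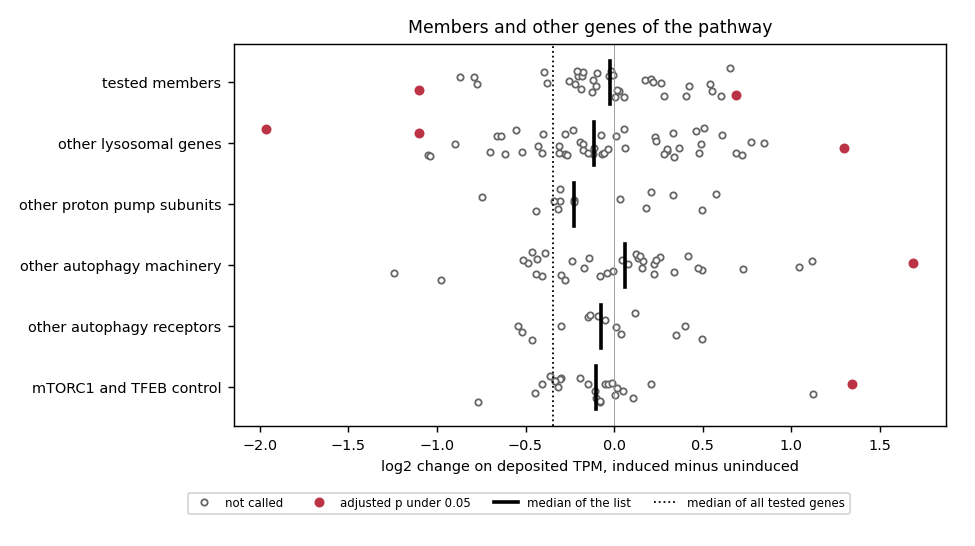
Change of each tested gene on deposited TPM (x axis, log2, induced minus uninduced) for the members and the 5 other pathway lists (y axis); red points passed at an adjusted p under 0.05, thick bars are list medians and the dotted line is the median of all tested genes at -0.35. Each list's median lies to the right of the dotted line and few points in any list are red.

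Members with and without the E-box were set side by side as a description. The 8 tested members with TCACGTG in the promoter had a median change of -0.17 on deposited and 0.21 on scaled TPM. None of the 8 was called. Over all tested genes, 11.5% passed on deposited and 6.04% on scaled TPM, in either direction. The 20 tested members whose promoter table entry lacks it had medians of 0.01 and 0.36. They held 1 higher and 1 lower call on deposited TPM and 2 higher calls on scaled TPM. Outside the 37, TCACGTG occurred in 10 of 43 promoters of other lysosomal genes (23.3%), in 6 of 34 of other autophagy machinery (17.6%), and in 0 of 14 of the proliferation markers.

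Other transcripts differed between the groups at the same time. Of 16 proliferation markers, 14 were lower on deposited TPM (median -2.03) and 13 on scaled TPM (median -1.73). Birc5 and Top2a, which act in mitosis, and Mcm5, a subunit of the replicative helicase, changed by -3.00, -2.78 and -2.71 on deposited TPM (limma adjusted p 0.004, 0.000571 and 0.00031). Of 9 measured erythroid markers 7 were higher on both scales. The summed level of the 9 was 56.9 to 62.7 TPM in uninduced and 415 to 479 TPM in induced libraries. Klf1 did not pass. Epor went the other way, lower in every induced library on both scales, but did not pass (-1.65 and -1.47, limma adjusted p 0.0638 and 0.137). The 8 stem cell markers summed to 351 to 509 and 459 to 495 TPM, with 3 higher and 1 lower on deposited and 4 higher and 0 lower on scaled TPM by limma. Among those used in the sort, Ly6a (Sca1) was higher on both scales (1.33 and 1.71, limma adjusted p 0.00694 and 0.0041). Kit was lower on deposited TPM only (-0.81 and -0.41, limma adjusted p 0.0354 and 0.2196), and Slamf1 (CD150) passed on neither scale. Neutrophil markers summed to 211 to 236 and 152 to 173 TPM, with 1 of 9 tested higher and 1 lower on deposited TPM. Megakaryocyte markers summed to 102.8 to 139.2 and 120 to 131 TPM, with 2 of 6 tested higher and 1 lower. On scaled TPM these lists had 1 and 2 higher calls and no lower ones. The part of these shifts in the members' changes was not tested.

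Macrophages and monocytes are rich in lysosomes, so their markers were set beside the peptidase results. The 14 markers summed to 83.1 to 133 TPM in uninduced and 135 to 153 TPM in induced libraries, without overlap. Only 4 could be tested (Cd68, C1qa, C1qc and Lyz2), and on deposited TPM none passed. Nearly all of the sum was Lyz2, at 92.1, 122.8 and 78.6 TPM and at 139.4, 119.9 and 134.8 TPM, which passed as higher on scaled TPM (0.84, limma adjusted p 0.0136) but not on deposited TPM (0.44, limma adjusted p 0.1625). Cd68 stood at 4.09, 3.56 and 0.991 TPM and at 1.99, 9.66 and 10.8 TPM, with overlapping groups (deposited change 1.01, limma adjusted p 0.294). C1qb stood at 0.734, 0.489 and 1.24 TPM in induced libraries and was listed at 0 in all uninduced ones. C1qa and C1qc had higher induced means with groups that overlapped on deposited TPM. The other 9 stood at 1.84 TPM or less in every library, with Marco and Fcgr1 listed at 0 throughout. The part of these cells in the members' changes was not tested. Dendritic cell markers, of which 2 were tested and none called, summed to 70.0 to 114 and 53.1 to 72.7 TPM, with Itgax and Siglech listed at 0. Markers of B cells (4.35 to 9.86 and 3.11 to 3.86 TPM), T and NK cells (5.84 to 17.2 and 0.253 to 1.18 TPM, 1 tested and called lower on both scales), mast cells and basophils (0.667 to 3.92 and 0.248 to 2.74 TPM) and endothelial and stromal cells (9.90 to 13.5 and 9.57 to 10.3 TPM) had lower sums. Listed at 0 in all libraries were 6 of 8 B cell and 5 of 8 T and NK cell markers. A listed 0 need not mean that a gene is silent, since the widely expressed autophagy genes Atg2a, Nrbf2 and Epg5 were also listed at 0 in all 6 libraries.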

How the data were processed

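Expression values were analysed as the authors deposited them, in TPM, 1 column for each library (6 libraries, 3 uninduced and 3 induced, grouped by title). Per the submitters' processing notes, bcl2fastq, HISAT2, StringTie and DESeq2 were used with the build GRCm38; versions, annotation release, read filters and strand setting are not given in the sources used here. The table's 60496 rows include 5025 repeats of an ID; they were added up to 55471 IDs, and columns summed to 999976 to 999993 TPM. Per the labels' protocols, libraries were made with a stranded total RNA kit for very small inputs and sequenced as paired reads.

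The table also holds each gene's GC content in percent, per the file headers, which was not used. Tests on log2(TPM + 1) used limma 3.58.1 (R 4.3.3; moderated variances with a trend) for the 13470 genes that averaged 1 TPM or more. They were two-sided, with Benjamini-Hochberg adjustment over all tested genes and a threshold of 0.05. The step was checked on simulated data. Values after median-of-ratios scaling are given beside the deposited scale. Members called on either scale, Tfeb, Tfe3, Mitf and the most abundant member of each role class are given library by library. Of each other list, up to 3 called genes with the largest changes are named, or else the most abundant gene; Tax1bp1 and Atp6v1f come from the latter rule. A gene that this rule selects is not reported here. Ctss, Mcoln1, Ctsa, Gusb, Glb1, the genes called only on scaled TPM and single cell type markers were singled out after their values were seen. The members and all lists were chosen with earlier results of these data known. Positions and exon overlaps come from GENCODE vM21 (GRCm38) and promoters from RefSeq (GRCm38.p6). Transcripts sharing at least 90% identity over at least 500 bases were sought with BLAST 2.17.0; outside shared loci this found only Gabarapl2 with Oxgr1 (90.6% over 500 bases, Oxgr1 at 0 TPM).

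Alternatives were pseudocounts of 0.1 and 5, no filter, a filter at 5 TPM, median-of-ratios and quantile scaling, rescaling to nuclear protein-coding genes, no variance trend, array weights, the first of repeated rows, a replicate block with and without scaling, and each library left out. Leaving out libraries after scaling was added after seeing the data.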

Additional observations from a re-analysis of the deposited data

How the results depend on the processing

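The 1 member called higher and the 1 called lower on deposited TPM (Sqstm1 and Ctsz) became 0 and 0 without the expression filter, without the variance trend and with the replicate block. They became 2 and 0 under quantile normalization, median-of-ratios scaling and the replicate block after scaling, and 3 and 0 after rescaling to nuclear protein-coding genes (Sqstm1, Gabarapl1 and Ctss). Leaving out a library gave 0 higher in each case and 0 to 1 lower, and after median-of-ratios scaling 1 to 2 higher and 0 lower. The 3 higher and 2 lower calls among the other pathway genes became 0 and 1 without the filter, 10 and 1 under quantile normalization and under median-of-ratios scaling, 14 and 1 after protein-coding rescaling, and 1 higher with the replicate block. The lower calls became 4 at a mean of at least 5 TPM (with Atg4b and Vps16 added), 1 without the trend and 0 with the block after scaling. With the block after scaling only Pla2g15 and Tfec were still called higher. Leaving out a library gave 0 to 3 higher and 1 to 2 lower. Both pseudocounts and the first-row rule changed no count of members or of other pathway genes.

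Over all 36 tested members, 20 lay below 0 on deposited and 5 on scaled TPM. Settings were compared gene by gene only for the members given library by library. Among these, changes of sign were in members that passed under no setting. In the order median-of-ratios scaling, quantile normalization, protein-coding rescaling and the block after scaling, the change became 0.013, 0.016, 0.0498 and 0.013 for Lamp1, 0.27, 0.27, 0.31 and 0.27 for Ctsd, 0.37, 0.36, 0.41 and 0.37 for Psap, 0.11, 0.13, 0.18 and 0.11 for Tfe3, and 0.14, 0.15, 0.22 and 0.14 for Atg7. Tfeb became -0.042 at a pseudocount of 0.1 and -0.019 with array weights. With a library left out the ranges were -0.14 to 0.081 for Psap, -0.53 to 0.59 for Tfeb, -0.48 to 0.21 for Tfe3, -0.20 to 0.24 for Ulk1 and -0.66 to 0.63 for Atg7. The scalings remove the offset of -0.35; for the other settings the cause was not tested.

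The labels give both groups replicate numbers but no shared source. Deviations of same-numbered libraries from their group means correlated at 0.0215, -0.0152 and 0.0172, and uninduced replicate 2 correlated best with induced replicate 3 (0.0224), so the replicate block pairs libraries by number only. Depth is unknown, so the precision of low genes such as Tfe3, Mitf and Wipi1 rests on the spread between libraries alone.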
